A study of Danio rerio with 6 samples.

Results

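Proteins that a cell secretes are folded in the endoplasmic reticulum (ER), and proteins of the cytosol and mitochondria are folded by separate sets of chaperones. The genes described here are 48 named zebrafish genes for ER chaperones, the unfolded protein response and the heat shock response. They were found in the deposited count table by symbol, with letter case ignored and a missing paralogue suffix accepted. A total of 47 of the 48 matched, and 3 of these matched 2 rows each, which gave 50 of the 30628 rows of the table. The gene atf6b matched no row and is not analysed here. The symbols dnajb9a and hsp90aa1.2 matched rows named DNAJB9 (2 rows) and HSP90AA1 without their suffix. Of the 50 rows 49 passed the filter on low counts. The exception was hsp90aa1.1, a muscle form of HSP90 in zebrafish, with 1, 10 and 7 counts in ATG5 replicates 1 to 3 and 6, 5 and 2 counts in WT replicates 1 to 3.

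Livers of 3 ATG5 and 3 WT zebrafish samples (Danio rerio) were compared by RNA sequencing. The ATG5 samples are labelled as overexpressing ATG5: in the transgenic line, the fabp10a promoter, which is active in hepatocytes, drives mCherry and the LexPR activator, and LexPR with mifepristone switches on LexOP:ATG5WT, a human autophagy gene. The WT samples are labelled wild type, and all 6 samples are labelled with mifepristone treatment and 2 wpi. No group had the transgene without the drug, so the transgene's effect and any line difference cannot be told apart. The labels do not say whether WT fish carried the LexPR driver. The series' design text calls the groups hepatocellular carcinoma and normal liver. The labels give neither the age of the fish nor whether a replicate is 1 animal or a pool. The p-values therefore reflect sample-to-sample spread, which may not be the spread between animals.

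The unfolded protein response is the programme by which a cell matches the folding capacity of its ER to the load of new proteins. The sensors Ire1 (gene ern1), Perk (eif2ak3) and Atf6 sit in the ER membrane and are held in check by the chaperone BiP (hspa5). When unfolded protein builds up, Ire1 splices the xbp1 message, Atf6 is cut free as a transcription factor, and Perk slows translation; Xbp1 and Atf6 then raise chaperone and degradation genes. Hepatocytes are rich in ER because they make most plasma proteins. The heat shock response is the cytosolic counterpart, run by the factor Hsf1. Counts per gene do not show xbp1 splicing or protein, so the activity of the sensors was not measured.

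The total estimated count was 33668921 to 44763213 per ATG5 library and 35151084 to 43864078 per WT library. Levels are given as CPM, the usual count relative to library size, here with sizes scaled by TMM factors of 1.33 to 1.47 in ATG5 and 0.684 to 0.763 in WT. With library sizes only, the median log2 fold change over all tested genes was 0.97 in place of 0.03, so each change below is relative to TMM scaling. Calls rest on the Benjamini-Hochberg adjusted p of edgeR's quasi-likelihood test under 0.05. Over 20366 tested genes, 17.3% had a higher call in ATG5 and 13.2% a lower call (30.6% either). Of the 49 tested chaperone and response genes, 12 (24.5%) were higher and 6 (12.2%) lower, at a median log2 fold of 0.37. In 15 of them all ATG5 libraries lay above all WT libraries (27.1% over all genes), and in 9 below (22.2% over all genes). Under library sizes only, 35 were higher and 1 was lower, beside 10837 and 578 of all 20366 genes. Folds shift up in that setting, so higher calls tend to stay and lower calls tend to be lost. That all 12 genes called higher are among those 35 is therefore no added support. The gene bag3 is the 1 still called lower. Leaving out WT replicate 1 gave 3 higher and 3 lower calls, and leaving out WT replicate 2 gave 6 and 4. Over all genes the calls also fell, from 3529 higher and 2698 lower to 2218 and 1583, and to 2590 and 2071.

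**Figure D1:**
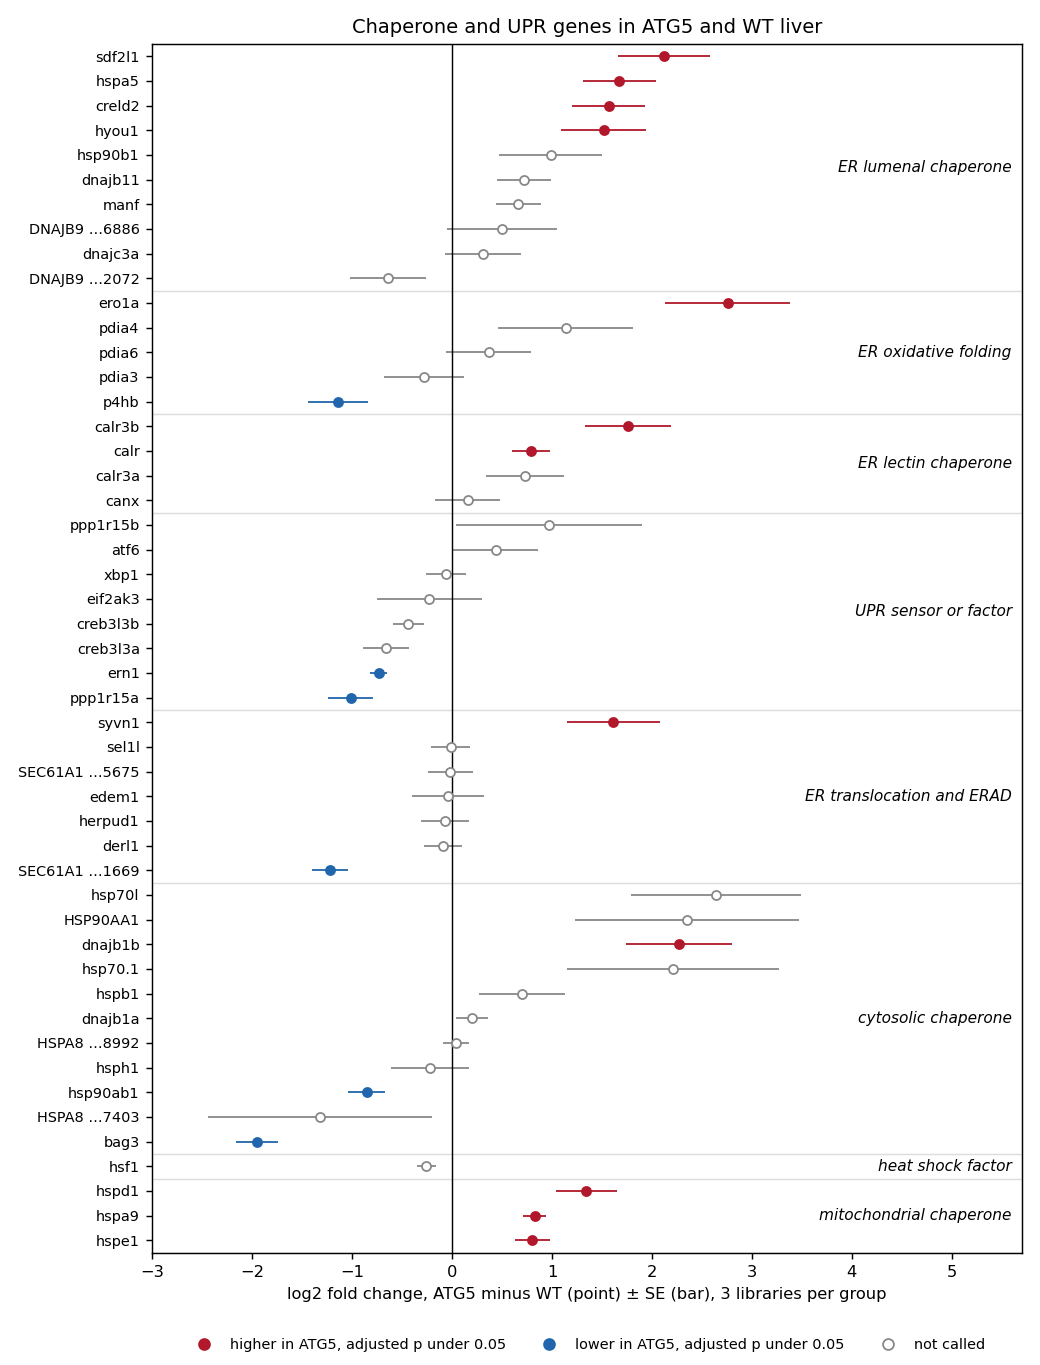
Log2 fold change of ATG5 over WT (horizontal axis, points, with SE as bars, 3 libraries per group) for the 49 tested genes, grouped by role and ordered within each role. Filled points passed the adjusted p; the ER lumenal and mitochondrial chaperones called lie to the right of 0, and the called sensor and response genes ern1 and ppp1r15a to the left relative to TMM scaling (with library sizes only ern1 stood at 0.21 and ppp1r15a at -0.06).

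Of the 10 rows for chaperones of the ER lumen and their helpers, 4 rose in ATG5 livers, against a background of 17.3%. The master chaperone hspa5 (BiP) stood at 436, 699 and 380 CPM in ATG5 replicates 1 to 3, against 154, 114 and 207 CPM in WT replicates 1 to 3. All 3 ATG5 libraries lay above all 3 WT libraries, and the log2 fold was 1.67 ± 0.36 (SE, n = 3 per group, edgeR adjusted p = 0.0131). In bulk liver, a change in the number of cells of a type and a change in RNA per cell cannot be told apart, and markers of hepatocytes and of immune cells differed between the groups, as given at the end.

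The other lumenal genes that rose were sdf2l1, hyou1 and creld2. For sdf2l1, a lumenal partner of BiP that is a known target of the response, the values were 13.1, 19.7 and 14.2 CPM in ATG5, against 1.96, 3.32 and 5.51 CPM in WT (log2 fold 2.12 ± 0.46, adjusted p = 0.0111). The groups did not overlap, and sdf2l1 kept its call in each of the 15 other settings run. The nucleotide exchange factor hyou1 had 99.3, 139 and 80.1 CPM in ATG5, against 26.8, 27.5 and 57 CPM in WT (log2 fold 1.52 ± 0.42, adjusted p = 0.0258). For creld2, an ER resident disulfide isomerase, ATG5 libraries had 5.56, 10.2 and 5.43 CPM and WT libraries 2.04, 2 and 3.13 CPM (log2 fold 1.57 ± 0.36, adjusted p = 0.0186). Both genes were highest in ATG5 replicate 2 and, within WT, in WT replicate 3. The calls were not stable to single libraries. Without WT replicate 1 the edgeR adjusted p was 0.0537 for hspa5, 0.0862 for hyou1 and 0.0697 for creld2. Their log2 folds there were 1.65, 1.32 and 1.46, and the higher calls over all genes also fell, from 3529 to 2218. Without WT replicate 2 it was 0.0767 for hyou1 and 0.0602 for creld2, and hyou1 also lost its call without ATG5 replicate 1 (0.0651) or 2 (0.0731).

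The remaining lumenal genes did not pass the edgeR test. For hsp90b1 (Grp94, the ER form of HSP90) the values were 230, 364 and 227 CPM in ATG5, against 96.2, 83.9 and 234 CPM in WT, so WT replicate 3 lay within the ATG5 range (log2 fold 0.99 ± 0.52, adjusted p = 0.144). Without WT replicate 3 its log2 fold was 1.6 with adjusted p = 0.022. The BiP cochaperone dnajb11 had a log2 fold of 0.72 ± 0.27 (adjusted p = 0.0682) and the secreted stress factor manf 0.66 ± 0.22 (adjusted p = 0.0604). For both, all ATG5 libraries lay above all WT libraries, and both passed by DESeq2 (adjusted p = 0.0426 for dnajb11 and 0.0397 for manf). By edgeR manf also passed without ATG5 replicate 3 (adjusted p = 0.0412). The cochaperone dnajc3a was at 0.31 ± 0.38 with overlapping groups. The 2 DNAJB9 rows, for another BiP cochaperone, stood at 0.50 ± 0.55 (ENSDARG00000016886) and -0.64 ± 0.38 (ENSDARG00000052072), and the groups overlapped for both.

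Genes of disulfide formation moved in different directions. The oxidase ero1a, which passes electrons from disulfide isomerases to oxygen, stood at 5.9, 4.08 and 1.51 CPM in ATG5, against 0.64, 0.389 and 0.674 CPM in WT. The groups did not overlap, and ATG5 replicate 3 was the lowest of its group (log2 fold 2.76 ± 0.62, adjusted p = 0.0148; 0.0524 without WT replicate 1, and 0.0917 by limma-voom). Its paralogue ERO1B, which is not among the 48 genes, fell: 44.7, 68.3 and 35.7 CPM in ATG5, against 139, 149 and 205 CPM in WT (log2 fold -1.73 ± 0.32, adjusted p = 0.00819; -0.77 and 0.0789 with library sizes only).

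The isomerase p4hb, which is also a subunit of collagen prolyl hydroxylase and of the triglyceride transfer protein complex, fell relative to TMM scaling. It stood at 462, 313 and 313 CPM in ATG5, against 725, 1060 and 610 CPM in WT (log2 fold -1.14 ± 0.30, adjusted p = 0.0279). All ATG5 libraries lay below all WT libraries. Under library sizes only the log2 fold was -0.21 (adjusted p = 0.569), and the call was also lost without ATG5 replicate 2 (0.0788) or 3 (0.0861), or WT replicate 1 (0.0659) or 2 (0.0652).

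The other isomerases overlapped between the groups. The values of pdia4 were 87, 112 and 78.9 CPM in ATG5, against 22.7, 20.1 and 83.6 CPM in WT. Only WT replicate 3 reached the ATG5 range, and the log2 fold was 1.14 ± 0.67 (adjusted p = 0.183), or 2.1 without that library (adjusted p = 0.00786). For pdia6 the log2 fold was 0.37 ± 0.42, and for pdia3, the partner of calnexin and calreticulin, -0.28 ± 0.40.

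Calnexin and the calreticulins hold glycoproteins in the ER until they are folded. Of these 4 lectin chaperones calr3b and calr rose, beside 17.3% of all genes. For calr3b the values were 172, 203 and 146 CPM in ATG5, against 34.8, 36.5 and 82.9 CPM in WT (log2 fold 1.76 ± 0.43, adjusted p = 0.0176). The ATG5 libraries of calr had 86.3, 109 and 88.7 CPM and the WT libraries 62.2, 44 and 58.5 CPM (log2 fold 0.79 ± 0.19, adjusted p = 0.0248). The groups did not overlap for either gene. The call of calr was lost on leaving out any 1 of the 6 libraries (adjusted p = 0.0509 to 0.0684), and that of calr3b without ATG5 replicate 1 or 2 or WT replicate 1 or 2 (0.0523 to 0.0584).

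For calr3a the values were 270, 284 and 240 CPM in ATG5, against 118, 110 and 251 CPM in WT. WT replicate 3 again lay among the ATG5 libraries (log2 fold 0.73 ± 0.39, adjusted p = 0.161; 1.21 and 0.0138 without WT replicate 3). The membrane chaperone canx stood at 208, 214 and 171 CPM in ATG5 and 149, 128 and 256 CPM in WT, and its groups overlapped (log2 fold 0.15 ± 0.32, adjusted p = 0.72). Counts of paralogues such as the calreticulins carry the added doubt of how reads were shared out, and their sequences were not compared.

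**Figure D2:**
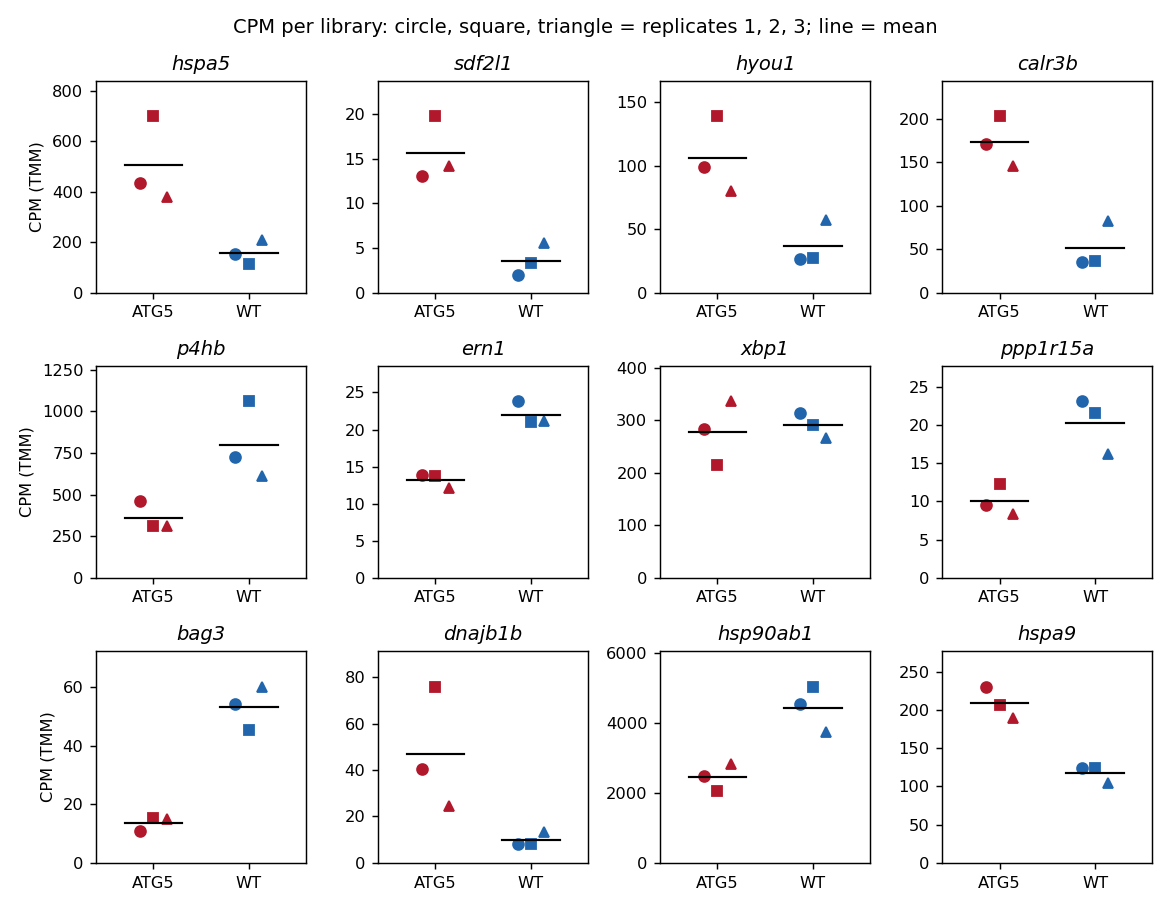
TMM-scaled CPM (vertical axis, from 0) in each library for 12 of the genes, ATG5 in red and WT in blue, with the symbols marking replicates and the line the group mean. In hspa5, hyou1 and calr3b the highest ATG5 value is replicate 2 and the highest WT value replicate 3, while the groups of xbp1 overlap.

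Among 8 tested sensors and factors of the response 0 rose and 2 fell by edgeR, beside 17.3% and 13.2% of all genes, but with library sizes only 3 were higher and 0 lower. The counts were 0 higher and 3 lower by DESeq2, 0 and 2 by limma-voom, and 0 and 4 at an unadjusted p under 0.05. The Ire1 gene ern1 stood at 13.8, 13.7 and 12.1 CPM in ATG5, against 23.8, 21 and 21.1 CPM in WT. It varied little within the groups and lay below WT in every ATG5 library (log2 fold -0.74 ± 0.09, adjusted p = 0.0111). It kept this call without any 1 library (0.0411 at most), but turned to 0.21 with library sizes only (adjusted p = 0.282).

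The gene ppp1r15a (Gadd34 in mammals), which directs the phosphatase that undoes the Perk signal, also fell relative to TMM scaling. It had 9.51, 12.2 and 8.38 CPM in ATG5, against 23.1, 21.5 and 16.2 CPM in WT (log2 fold -1.01 ± 0.22, adjusted p = 0.0167). The groups did not overlap. The log2 fold was -0.06 with library sizes only (adjusted p = 0.847), and leaving out ATG5 replicate 1 (0.0522) or WT replicate 1 (0.0563) ended the call. Its constitutive relative ppp1r15b was low (2.16, 0.991 and 1.31 CPM in ATG5, and 0.6, 0.149 and 1.55 CPM in WT) and overlapped (log2 fold 0.97 ± 0.93, adjusted p = 0.395).

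For xbp1, the target of Ire1, the values were 284, 214 and 336 CPM in ATG5 and 314, 291 and 266 CPM in WT. The groups overlapped fully (log2 fold -0.06 ± 0.20, adjusted p = 0.846), and with library sizes only it stood at 0.87 (adjusted p = 0.00923). For atf6 the ATG5 libraries had 40.9, 48.1 and 36.8 CPM and the WT libraries 41.2, 35.3 and 16.4 CPM (log2 fold 0.44 ± 0.42, adjusted p = 0.373). The Perk gene eif2ak3 stood at 10, 28.5 and 9.89 CPM in ATG5 and 23.3, 16.6 and 16.8 CPM in WT. ATG5 replicate 2 was above every WT library and the other ATG5 libraries below them (log2 fold -0.23 ± 0.53, adjusted p = 0.736), and without that library the log2 fold was -0.93 (adjusted p = 0.0366).

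The liver-enriched membrane factors creb3l3a and creb3l3b are cut by the same proteases as Atf6 and in mammals act on lipid and acute phase genes. For creb3l3a the values were 51.3, 73 and 62.3 CPM in ATG5, against 86.2, 124 and 85.7 CPM in WT (log2 fold -0.67 ± 0.23, adjusted p = 0.0641, and 0.0164 by DESeq2). For creb3l3b the log2 fold was -0.44 ± 0.16 (adjusted p = 0.0959). In both the ATG5 libraries lay below the WT libraries without passing the edgeR test, and with library sizes only the log2 folds turned to 0.27 and 0.52 (adjusted p = 0.395 and 0.0425).

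Among 7 rows for entry into the ER and for degradation out of it, 1 rose and 1 fell, shares of 14.3% each that lie near the 17.3% and 13.2% of all genes. The ubiquitin ligase syvn1 (Hrd1), core of ER-associated degradation, stood at 78.3, 179 and 66.3 CPM in ATG5, against 38.8, 28.7 and 38.5 CPM in WT. ATG5 replicate 2 was far above the other ATG5 libraries, which still lay above WT (log2 fold 1.61 ± 0.47, adjusted p = 0.0282). Without that library the call held, and it was lost without WT replicate 1 (0.0809), 2 (0.0876) or 3 (0.0741). The scaffold of the same complex, sel1l, had 39.8, 52.1 and 45.8 CPM in ATG5 and 52.6, 36.8 and 49.7 CPM in WT, with overlapping groups (log2 fold -0.01 ± 0.19, adjusted p = 0.963).

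The channel SEC61A1, through which new proteins enter the ER, is listed in 2 rows. The row ENSDARG00000021669 fell relative to TMM scaling, with 297, 269 and 235 CPM in ATG5, against 746, 612 and 512 CPM in WT (log2 fold -1.22 ± 0.18, adjusted p = 0.00806). The groups did not overlap, and the log2 fold was -0.27 with library sizes only (adjusted p = 0.289). The row ENSDARG00000005675 stood at 57.2, 84.7 and 58.1 CPM in ATG5 and 68.5, 56.9 and 77.4 CPM in WT (log2 fold -0.02 ± 0.23). The difference between the 2 rows was not tested.

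The other degradation genes were close to 0 in log2 fold, with overlapping groups, relative to TMM scaling. The values were -0.07 ± 0.24 for herpud1, a membrane adaptor that the response induces, -0.04 ± 0.36 for edem1, which marks glycoproteins for degradation, and -0.09 ± 0.19 for derl1, a part of the export channel. Under library sizes only, herpud1, derl1, sel1l and the SEC61A1 row ENSDARG00000005675 were called higher, at 0.86 to 0.94, close to the median of all genes there (0.97).

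The cytosolic chaperones showed no common direction: of 11 tested rows 1 rose and 2 fell, against backgrounds of 17.3% and 13.2%. The cochaperone bag3, which couples HSP70 to selective autophagy, fell most clearly. It stood at 10.8, 15.5 and 15.1 CPM in ATG5, against 54.4, 45.5 and 60.3 CPM in WT (log2 fold -1.95 ± 0.21, adjusted p = 0.00202). The groups were far apart, and bag3 was called lower in each of the 15 other settings, library sizes only included (-1, adjusted p = 0.00733).

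The main constitutive HSP90, hsp90ab1, had 2502, 2057 and 2820 CPM in ATG5, against 4549, 5048 and 3745 CPM in WT. All ATG5 libraries lay below WT (log2 fold -0.85 ± 0.18, adjusted p = 0.0361), but the change was 0.08 with library sizes only, and the call was lost without any 1 of 5 libraries (0.0603 to 0.108; it held without WT replicate 3). The constitutive HSP70, in the HSPA8 row ENSDARG00000068992, stood at 1281, 1216 and 1298 CPM in ATG5 and 1071, 1169 and 1451 CPM in WT, with overlapping groups (log2 fold 0.04 ± 0.13, adjusted p = 0.897). The HSPA8 row ENSDARG00000037403 was low, at 2.01, 7.78 and 1.99 CPM in ATG5 and 2.96, 3.82 and 22.7 CPM in WT, where WT replicate 3 stood apart (log2 fold -1.32 ± 1.12).

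Over all libraries the heat-inducible genes HSP90AA1, hsp70l and hsp70.1, unlike hspb1, hsph1 and bag3, were highest in ATG5 replicate 2. Within ATG5, bag3 was also highest in replicate 2 (15.5 CPM, against 15.1 CPM in replicate 3), but all its WT values were higher. For HSP90AA1 the values were 5.88, 37.9 and 3.45 CPM in ATG5 and 2.36, 4.93 and 1.9 CPM in WT. That library was far above the rest, and ATG5 replicate 3 lay within the WT range (log2 fold 2.35 ± 1.12, adjusted p = 0.115; 0.60 and 0.435 without ATG5 replicate 2). By DESeq2 it passed (adjusted p = 0.02). The inducible HSP70 gene hsp70l stood at 1.15, 5.96 and 0.972 CPM in ATG5, against 0.44, 0.299 and 0.555 CPM in WT (log2 fold 2.64 ± 0.85, adjusted p = 0.0533; 1.29 and 0.112 without ATG5 replicate 2). Its groups did not overlap. It passed by DESeq2 (adjusted p = 0.00634), and by edgeR without ATG5 replicate 3 (log2 fold 3.01, adjusted p = 0.0471). For hsp70.1 the values were 0.614, 3.66 and 0.285 CPM in ATG5 and 0.28, 0.448 and 0.238 CPM in WT, again with ATG5 replicate 2 alone apart (log2 fold 2.21 ± 1.06, adjusted p = 0.145).

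The HSP70 cochaperone dnajb1b was highest in the same library, but every ATG5 library lay above WT. It had 40.4, 76 and 24.4 CPM in ATG5, against 8.08, 8.01 and 13.2 CPM in WT (log2 fold 2.27 ± 0.53, adjusted p = 0.0137). The groups did not overlap, and the adjusted p was 0.0571 without WT replicate 1. Its paralogue dnajb1a stood at 6.33, 7.48 and 6.05 CPM in ATG5 and 6.84, 5.35 and 5.07 CPM in WT (log2 fold 0.20 ± 0.16, adjusted p = 0.473). The small heat shock protein gene hspb1 had a log2 fold of 0.70 ± 0.43 and the exchange factor hsph1 one of -0.22 ± 0.39, both with overlapping groups. The factor hsf1 itself had 13.1, 16.4 and 14.8 CPM in ATG5, against 18.1, 17.5 and 17.4 CPM in WT, a small difference that did not pass (log2 fold -0.26 ± 0.10, adjusted p = 0.219; 0.69 with library sizes only).

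All 3 mitochondrial chaperones rose, relative to a background of 17.3%. With library sizes only they were higher too, as were 10837 of all 20366 genes. The chaperonin subunit hspd1 (HSP60) stood at 152, 90.6 and 120 CPM in ATG5, against 34.4, 52.3 and 56.1 CPM in WT (log2 fold 1.34 ± 0.31, adjusted p = 0.0142). Its lid hspe1 (HSP10) had 59.7, 41.1 and 55.3 CPM in ATG5, against 28.2, 29 and 32.4 CPM in WT (log2 fold 0.80 ± 0.17, adjusted p = 0.0191). The import motor hspa9 stood at 231, 207 and 189 CPM in ATG5, against 124, 124 and 105 CPM in WT (log2 fold 0.83 ± 0.12, adjusted p = 0.0122). The ATG5 libraries lay above WT in each of the 3 genes. The calls of hspd1 and hspa9 held without any 1 library, and that of hspe1 was lost without ATG5 replicate 1 or 3 or WT replicate 1 or 2 (0.062 to 0.0746).

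ER and cytosolic folding genes were then set side by side. Of the 19 tested ER folding rows (lumenal, oxidative and lectin) 7 (36.8%) rose and 1 (5.26%) fell, beside 17.3% and 13.2% of all genes, at a median log2 fold of 0.73. Of the 11 tested cytosolic rows 1 (9.09%) rose and 2 (18.2%) fell, at a median log2 fold of 0.20, and the median over all tested genes was 0.03. Relative to library sizes only the medians were 1.68, 1.16 and 0.97. The ER count changed with the libraries kept. It was 1 higher without WT replicate 1 (sdf2l1), 3 without WT replicate 2 and 9 without WT replicate 3, and 4 without ATG5 replicate 1 or 2. Over all genes the higher calls fell from 3529 to 2218, 2590 and 2568 without WT replicates 1, 2 and 3. They fell to 2312 and 2791 without ATG5 replicates 1 and 2.

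Within a library the scaling factor nearly cancels when 1 set of genes is subtracted from the other. The mean log2 CPM of the ER rows minus that of the cytosolic rows was 1.96, 1.48 and 2.097 in ATG5 replicates 1 to 3, against 1.38, 1.13 and 1.62 in WT replicates 1 to 3. The group means were 1.85 ± 0.33 and 1.38 ± 0.25 (SD, n = 3 each), a difference of 0.47, but ATG5 replicate 2 lay below WT replicate 3, so the groups overlapped. Since the genes were chosen, no p is given for this value. Leaving out single libraries moved the difference between 0.34 (without WT replicate 2 or ATG5 replicate 3) and 0.65 (without ATG5 replicate 2). With fitted log2 folds it was 0.27 by DESeq2 or edgeR and 0.49 by limma-voom.

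**Figure D3:**
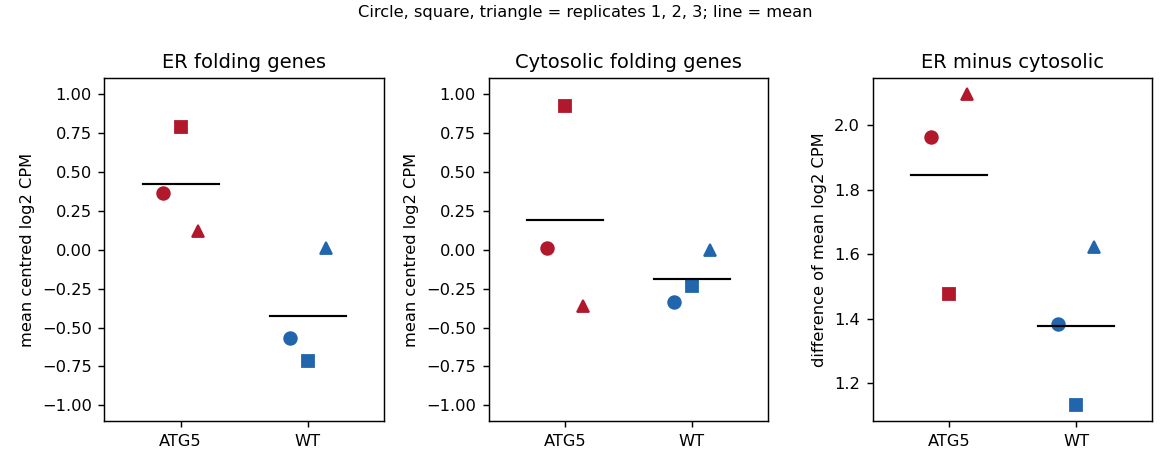
Mean log2 CPM of the ER folding rows (left) and the cytosolic folding rows (middle), each row centred on its mean over the 6 libraries, and the mean of the ER rows minus that of the cytosolic rows before centring (right), per library, with the line at the group mean. The groups are apart for the ER rows and overlap for the cytosolic rows and for the difference, where ATG5 replicate 2 (1.48) lies below WT replicate 3 (1.62).

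Related chaperones of different compartments, chosen after their values were seen, were also compared within a library. The log2 CPM of hspa5 minus that of HSPA8 (ENSDARG00000068992) was -1.56, -0.80 and -1.77 in ATG5, against -2.80, -3.36 and -2.81 in WT. For hsp90b1 minus hsp90ab1 it was -3.44, -2.50 and -3.63 in ATG5, against -5.56, -5.91 and -4.00 in WT. The exchange factors hyou1 minus hsph1 gave 4.67, 5.45 and 5.28 in ATG5, against 3.53, 2.62 and 3.90 in WT. In these 3 comparisons the groups did not overlap, and the ER form gained on the cytosolic form by 1.61, 1.97 and 1.78 on the log2 scale. The mitochondrial hspa9 minus the same HSPA8 row gained by 0.78, with -2.47, -2.56 and -2.78 in ATG5 and -3.11, -3.24 and -3.79 in WT. For the cochaperones dnajb11 and dnajb1b the order was the other way, with the cytosolic form gaining (-0.09, -0.68 and 0.27 in ATG5, against 1.21, 1.44 and 1.14 in WT). These values are not levels per length, so only their differences between the groups are compared.

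Single libraries stood high for many of these genes at once. ATG5 replicate 2 was the highest ATG5 library for 17 of the 19 ER rows and 7 of the 11 cytosolic rows, and WT replicate 3 was the highest WT library for 14 of the 19 ER rows. The mean centred log2 CPM of the ER rows was 0.36, 0.79 and 0.12 in ATG5 and -0.57, -0.72 and 0.01 in WT, so the gap between ATG5 replicate 3 and WT replicate 3 was small. The exocrine pancreas is another tissue rich in ER chaperones, and its 22 listed marker rows summed to 1122, 1039 and 838 CPM in ATG5 and to 224, 2656 and 5351 CPM in WT. Within WT, replicate 3 was thus highest in both, and its ER mean lay below all 3 ATG5 libraries, whereas WT replicate 2 had more pancreas marker counts than any ATG5 library and the lowest ER mean. The part of pancreas RNA in these results was not tested.

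**Figure D4:**
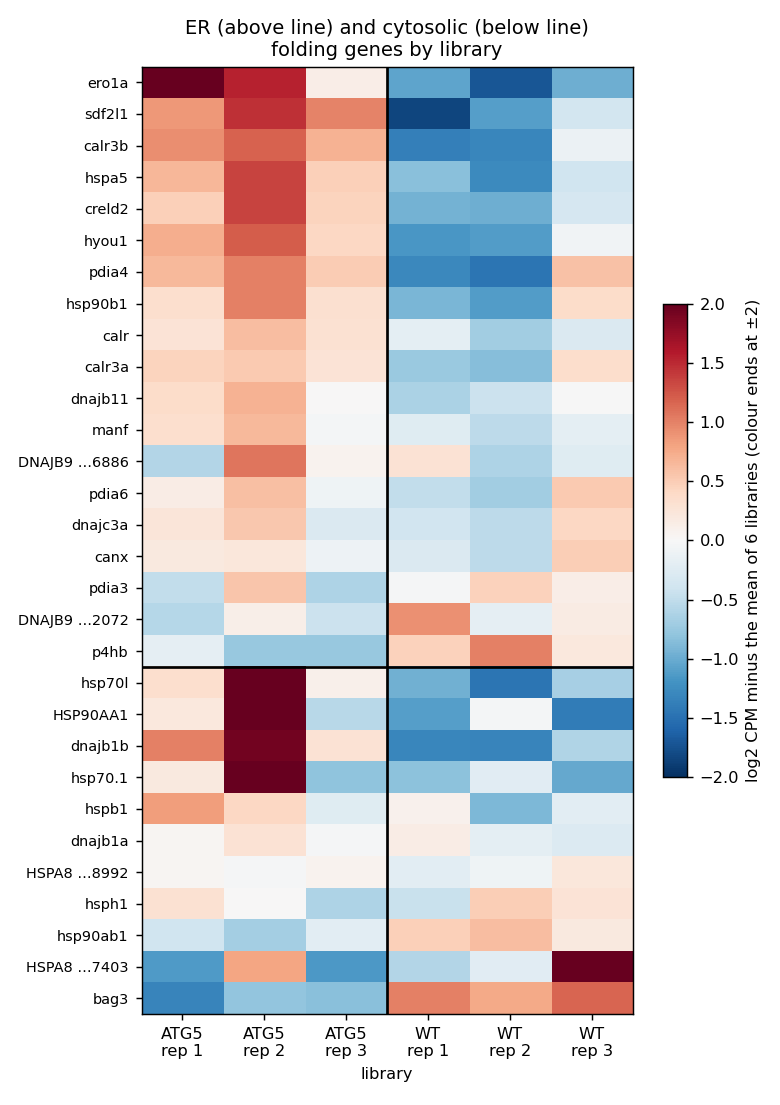
Log2 CPM of each ER folding row (above the line) and cytosolic folding row (below it) in the 6 libraries, minus the mean over the libraries, red above and blue below that mean, with the colour ending at 2 and -2. ATG5 replicate 2 is the darkest ATG5 column for hsp70l, HSP90AA1, hsp70.1 and dnajb1b, and WT replicate 3 is above its group for hsp90b1, pdia4 and calr3a.

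The wider machinery of the ER was followed with lists of genes other than the 48. With library sizes only, 10837 of all 20366 tested genes were higher and 578 lower. The counts of the lists in that setting stand beside these. Among 40 tested rows for other ER folding enzymes 7 rose and 4 fell, close to the 17.3% and 13.2% of all genes (median log2 fold 0.04; 24 and 0 with library sizes only). The BiP exchange factor SIL1 stood at 16.3, 14.6 and 12.9 CPM in ATG5, against 5.88, 5.56 and 7.73 CPM in WT (log2 fold 1.19 ± 0.18, adjusted p = 0.007). The prolyl isomerase FKBP14, low at 1.5 CPM in ATG5 and 0.38 CPM in WT, had a log2 fold of 1.98 ± 0.28. The third gene named from this list, ERO1B, is given above. Among 30 rows for ER-associated degradation and ER-phagy, 0 rose and 7 fell by edgeR, beside 17.3% and 13.2% of all genes (0 and 8 by DESeq2, 0 and 7 by limma-voom, and 0 and 10 at an unadjusted p under 0.05), with a median of -0.33, although 17 rose and 1 fell with library sizes only. The translocation factor SEC62, which also serves as an ER-phagy receptor in mammals, had 75.1, 92.8 and 93 CPM in ATG5, against 190, 200.3 and 230 CPM in WT (log2 fold -1.25 ± 0.13, adjusted p = 0.00394; -0.30 and 0.201 with library sizes only). The ligase RNF185 had a log2 fold of -0.64 ± 0.10, which turned to 0.30 with library sizes only.

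In the translocon and signal peptide list 2 of 29 rows rose and 6 fell (median -0.08), beside 17.3% and 13.2% of all genes, and 21 rose and 1 fell under library sizes only, with the translocon-associated SSR2 at a log2 fold of -0.79 ± 0.07 and SSR1 at -1.02 ± 0.20. The calls of SSR2 and SSR1 were lost with library sizes only (0.16 and -0.06). EMC7, of the ER membrane protein complex, is listed in 2 rows. The low row ENSDARG00000102983 averaged 0.21 CPM in ATG5 and 1.42 CPM in WT (log2 fold -2.73 ± 0.31, adjusted p = 0.00677), while the row ENSDARG00000012144, with most of its counts, averaged 34.9 CPM in ATG5 and 40.1 CPM in WT and did not pass (-0.20, adjusted p = 0.321). The 2 that rose were SRP14 and SRP19, parts of the signal recognition particle, named after their values were seen. The particle's parts did not move together. SRP9 fell (-0.59, edgeR adjusted p = 0.0179), and SRP54, SRP68 and SRP72 did not pass (-0.035, -0.203 and 0.086). The gene srprb, for a subunit of the particle's receptor, also fell (-0.97, edgeR adjusted p = 0.0184). In the N-glycosylation list 4 of 32 rose and 2 fell by edgeR, both shares below the 17.3% and 13.2% of all genes (median 0.38, and 29 and 0 by library size alone). By DESeq2 the counts were 7 and 2, and at an unadjusted p under 0.05 they were 9 and 2. Over all 20366 genes those counts were 4047 and 3635, and 4761 and 3902. All ATG5 libraries lay above WT in 12 rows and below in 3, beside 27.1% and 22.2% of all genes. The oligosaccharyltransferase subunit DAD1 stood at 54.6, 54.7 and 59.3 CPM in ATG5, against 20.3, 20.7 and 34.6 CPM in WT (log2 fold 1.16 ± 0.26, edgeR adjusted p = 0.0146). The glucosidase subunit PRKCSH had a log2 fold of 0.63 ± 0.09, and the oligosaccharyltransferase subunit TUSC3, low in both groups, 3.61 ± 0.22. The WT values of TUSC3 were 0.08, 0.15 and 0.08 CPM, near the level of 3 counts, where the SE is too narrow. In the list of transport between ER and Golgi 5 of 37 rose and 4 fell by edgeR, near or below 17.3% and 13.2% (median 0.22, and 30 and 0 by library size alone). By DESeq2 the counts were 8 and 6, and at an unadjusted p under 0.05 they were 13 and 6. All ATG5 libraries lay above WT in 15 rows and below in 7, beside the same 27.1% and 22.2%. The coat subunit COPB1 stood at 1.43 ± 0.21 and cideb, which acts in lipoprotein export, at -1.27 ± 0.11 (-0.33 with library sizes only). The cargo receptor TMED5 stood at -1.34 ± 0.29 (-0.41 with library sizes only).

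The integrated stress response lies downstream of Perk and of other kinases. Of 24 tested rows 8 rose and 4 fell, beside 17.3% and 13.2% of all genes (median 0.21; 17 and 0 with library sizes only). The antiviral kinase eif2ak2 had 15.3, 10.7 and 14.7 CPM in ATG5, against 2.32, 3.23 and 2.7 CPM in WT (log2 fold 2.30 ± 0.21, adjusted p = 0.00176), and the initiation factor subunits EIF2B1 and EIF2B3 had log2 folds of 1.27 ± 0.14 and 1.02 ± 0.11. The other called rows of the list are named here after their values were seen. Higher were ATF3, which stood at 49.6 CPM in ATG5 and 11.4 CPM in WT (log2 fold 2.12, adjusted p = 0.0162), DDIT3 (Chop), at 46.2 CPM in ATG5 and 25.6 CPM in WT (log2 fold 0.85, adjusted p = 0.0259), ASNS (0.66, adjusted p = 0.0179), sesn2 (1.84, adjusted p = 0.0113) and cdkn1a (1.11, adjusted p = 0.0276). Lower were CHAC1, at 144 CPM in ATG5 and 358 CPM in WT (log2 fold -1.32, adjusted p = 0.0224), CEBPB (-0.51, adjusted p = 0.0498), atf5b (-0.56, adjusted p = 0.0299) and the EIF2S1 row ENSDARG00000052178 (-0.72, adjusted p = 0.0398). Of the 12 rows that did not pass, atf4a and atf4b, for the factor at the centre of the response, stood at 0.45 and -0.08. The other EIF2B rows of the list, named after their values were seen, did not pass either. EIF2B2, EIF2B4 and EIF2B5 stood at -0.06, 0.19 and -0.13. In the list on death after ER stress 6 of 25 rows rose and 4 fell, beside the same shares (median 0.17, and 15 and 0 by library size alone). The gene traf2b, for an Ire1 adaptor, stood at 1.12 ± 0.07. The TRAF2 row of the same list, named after its value was seen, did not pass (0.17, edgeR adjusted p = 0.668). The ER membrane protein gene WFS1 stood at -1.33 ± 0.19 (-0.37 with library sizes only). TMBIM6, an inhibitor of Ire1 and of cell death, stood at -0.997 ± 0.05 (edgeR adjusted p = 0.00529, and log2 fold -0.05 with library sizes only).

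On the cytosolic side, none of the 16 rows of the TRiC chaperonin and prefoldin list passed by edgeR or limma-voom (2 were lower by DESeq2, and 2 in each direction had an unadjusted p under 0.05). With library sizes only 12 were higher and 0 lower. Its most abundant genes were TCP1, at a log2 fold of 0.00 ± 0.40, and CCT8, at -0.63 ± 0.22 (0.94 and 0.30 with library sizes only). Among 41 rows for cochaperones of HSP90 and HSP70, 8 rose and 4 fell, near the 17.3% and 13.2% of all genes (median 0.12; 31 and 0 with library sizes only). The HSP90 cochaperone PTGES3 (p23) stood at 34.3, 38.7 and 38 CPM in ATG5, against 4.32, 5.92 and 5.95 CPM in WT (log2 fold 2.78 ± 0.16, adjusted p = 0.000691), while its row ENSDARG00000037284 did not pass (0.14, adjusted p = 0.587), and the myosin chaperone UNC45A had 1.23 ± 0.12. FKBP5, a cochaperone of the glucocorticoid receptor and a target of it, had -1.22 ± 0.25 (-0.28 with library sizes only). In the list of small heat shock proteins and other Hsf1-linked genes 3 of 19 rose and 1 fell, beside the same shares (median 0.47, and 12 and 0 with library sizes only). On the log2 scale CRYAA, low at 2.01 CPM in ATG5 and 0.26 CPM in WT, rose by 2.94 and hsbp1b by 0.76. The SERPINH1 row ENSDARG00000075954 rose by 2.11, and it is also counted among the other ER folding enzymes above, so it is not a cytosolic result. The SERPINH1 row ENSDARG00000019949 did not pass (0.38, edgeR adjusted p = 0.546). The ubb row ENSDARG00000093313, named after its value was seen, fell by 1.18. That call was lost with library sizes only, where 0 rows of the list were lower. The UBB row ENSDARG00000002369 did not pass (0.18, edgeR adjusted p = 0.446).

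Of 28 rows for other mitochondrial quality control genes 4 rose and 8 fell, beside 17.3% and 13.2% of all genes (median 0.02; under library sizes only 18 were higher and 0 lower). The unfoldase CLPX had log2 fold -1.29 ± 0.13 in its row ENSDARG00000067796 (36 CPM in ATG5 and 87.8 CPM in WT), the hspa9 cochaperone DNAJA3 -1.20 ± 0.17 and the disaggregase clpb -1.36 ± 0.20 in its row ENSDARG00000090232 (adjusted p = 0.0031, 0.00514 and 0.00537). The other CLPX row, ENSDARG00000029063, averaged 70 CPM in ATG5 and 91 CPM in WT and did not pass (-0.38, adjusted p = 0.251). The dnaja3b row, listed beside the DNAJA3 row ENSDARG00000058494, did not pass either (0.33, edgeR adjusted p = 0.248). The called rows of CLPX, DNAJA3 and clpb given first lost their calls with library sizes only (-0.34, -0.25 and -0.41). The mitochondrial genome's own genes held a share of 3.45% to 3.57% per ATG5 library, against 5.6% to 5.88% per WT library.

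Markers of cell types moved beside these results. Their counts stand beside 17.3% of all genes called higher and 13.2% called lower. Hepatocyte markers, which check the labelled tissue, summed to 92345 to 122614 CPM in ATG5 and 293016 to 357140 CPM in WT, and 18 of 21 rows fell (median -1.71, and -0.77 with library sizes only), among them the plasma protein genes VTN (log2 fold -1.89) and FGB (-1.93) and the enzyme gene hpda (-2.31). The gene fabp10a, whose promoter drives the transgene, averaged 6229 CPM in ATG5 and 11689 CPM in WT (-0.91, adjusted p = 0.0764). Of 24 macrophage rows 22 rose and 1 fell, with sums of 2373 to 2805 CPM in ATG5 and 318 to 433 CPM in WT, among them grna, c1qb and ctss2.1 (log2 folds 3.76, 3.26 and 4.64). Of 16 lymphocyte and plasma cell rows 11 rose by edgeR, 13 by DESeq2 and 7 by limma-voom (sums of 58.6 to 147 CPM in ATG5, against 12.1 to 18.3 CPM in WT). Among them were ZAP70, cd4-1 and IRF4 (5.17, 6.31 and 3.47). Of 17 biliary rows 10 rose by edgeR, 9 by DESeq2 and 8 by limma-voom, among them cldn7b, epcam and krt18a.1 (5.40, 1.98 and 1.48 by edgeR). All 21 tested cell division rows rose (sums of 553 to 811 CPM in ATG5, against 31.5 to 41.3 CPM in WT), among them bub1, AURKB and TOP2A (5.87, 6.25 and 6.60). None of the 19 pancreas or 14 erythrocyte rows passed by edgeR (at an unadjusted p under 0.05, 1 pancreas row was lower and 0 erythrocyte rows; 2 and 0 by DESeq2, and 0 and 0 by limma-voom). Their most abundant genes were the trypsin genes prss1 (-1.52) and prss59.1 (-1.55), and hbaa1 (-0.66) and nt5c2l1 (-1.24), all with overlapping groups. ATG5 replicate 2 had the lowest hepatocyte, macrophage, lymphocyte and division sums of its group and the highest level of 17 of the 19 ER rows. Its biliary sum was also the lowest, but the mean centred log2 CPM of the biliary rows was lowest in replicate 1. It was 0.53, 0.56 and 1.16 in ATG5 replicates 1 to 3. The part of these cells in the changes of the chaperone genes was not tested.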

How the data were processed

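Per the labels' protocols, RNA of the 6 livers was isolated with TRIzol, and libraries were made with the TruSeq Stranded Total RNA kit. The deposited file gives an unnormalized estimated count for each Ensembl gene ID. Per the submitters' processing notes, the build was GRCz11 and the tools included kallisto 0.45.0, FastQC 0.11.5 and sleuth 0.30.0, whose roles are not given. The sources used here do not give the strand setting, so an antisense partner's reads may be included. Symbols were held for 23608 of 30628 rows. Estimated counts, as deposited, were rounded before testing. A count of 3 in a library is 0.0503 to 0.12 CPM, a limit that covers counting error only.

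Genes passing filterByExpr were scaled with TMM factors and tested in R 4.3.3 with edgeR 4.0.16 (glmQLFit, glmQLFTest, group as the only term), adjusted over all 20366 genes at 0.05. The code was tested on simulated data. SE was computed within groups on log2 CPM (prior count 2), which narrows near 0 counts. Alternatives used limma 3.58.1, DESeq2 1.42.0, other scalings, filters, a replicate block and leaving out each library. The 48 members and 18 lists (487 listed genes) were chosen with earlier results of these data known. All members were named. From each list the rule names up to 3 called genes by smallest p, or the 2 most abundant where none is called, and other genes are marked where given. A gene that this rule names is not reported here. Figures used matplotlib 3.10.9. No pair of libraries of the same group agreed within sampling noise, and pairs across the groups were not checked.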

Additional observations from a re-analysis of the deposited data

How the results depend on the processing

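RLE or upper-quartile factors changed no call among the 49 genes. With library sizes only, 10837 genes were higher and 578 lower over the whole table, and among the 49 genes 35 were higher and 1 lower. ER folding rows were then 16 higher and 0 lower (median 1.68) and cytosolic rows 7 higher and 1 lower (median 1.16). Among rows called in either fit, the log2 folds of ern1 (0.21), xbp1 (0.87), creb3l3b (0.52), SEC61A1 row ENSDARG00000005675 (0.94), herpud1 (0.88), sel1l (0.94), derl1 (0.86), hsp90ab1 (0.078) and hsf1 (0.69) turned to above 0 there, as did pdia3, creb3l3a, eif2ak3, edem1, hsph1 and DNAJB9 row ENSDARG00000052072, called in neither. The replicate numbers did not pair the samples (correlations of deviations -0.0408, -0.0999 and 0.0211). A replicate block gave 2253 genes higher and 1636 lower, 3 of the 49 higher, 2 and 0 ER rows, and 0 and 1 cytosolic rows; it has fewer residual degrees of freedom. Cytosolic rows were 3 higher with DESeq2, 2 higher with at least 1 CPM in 3 libraries, and 1 lower with no filter or without the 50 most abundant genes, which include hsp90ab1. Leaving out 1 library gave 2218 to 2791 genes higher and 1583 to 2071 lower, 3 to 13 and 3 to 6 of the 49, 1 to 9 and 0 to 1 ER rows, and 0 to 2 and 1 to 2 cytosolic rows. The difference between ER and cytosolic rows was 0.34 to 0.65 on leaving out 1 library, and over all settings 0.27 (DESeq2, and edgeR fitted folds, a scale added after seeing the data) to 0.65. The cause of these changes was not tested. Counts were lowest for hsp90aa1.1, at 1 to 10 per library.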
